A study of Rattus norvegicus with 8 samples.

Results

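Transcripts of NF-kappaB factors and inflammatory cytokines were examined in ovaries of rats given 5α-dihydrotestosterone (DHT), a non-aromatizable androgen, as a rat model of polycystic ovarian syndrome. The group is made of 10 genes, of 14217 with a probe set that carries a single symbol: the factors Nfkb1 and Rela, their inhibitors Nfkbia and Nfkbib, the cytokines Il1b, Il6, Il18 and Tnf, and the chemokines Ccl2 and Cxcl12. They were chosen by name. All 10 were measured, by 13 probe sets, and the values given for a gene are those of its brightest probe set (by the mean of the 6 single-animal arrays). DHT females of the Sprague-Dawley strain carried a silicone capsule that released DHT for 12 weeks, CTL females carried an empty capsule, and the ovarian cortex was taken at 15 weeks of age. RNA of 3 DHT and 3 CTL animals was read on 1 Affymetrix rat genome array each, and 1 further array per group held the pooled RNA of the same 3 animals. The pooled arrays were used only as a check.

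NF-kappaB is a dimer of Rel family proteins, most often p50, which is made from the Nfkb1 product, with p65, the Rela product. IkappaB proteins such as those of Nfkbia and Nfkbib hold the dimer in the cytoplasm until the IkappaB kinase marks them for destruction, after which the dimer enters the nucleus and acts on genes of cytokines, chemokines and its own inhibitor Nfkbia. This control runs largely through protein, so transcript levels do not report the activity of the factor. In the ovary, cytokines and chemokines of this kind take part in ovulation and in the breakdown of the corpus luteum.

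The promoters of both inhibitors are shown because Nfkbib passed the criteria given below in the DHT comparison and Nfkbia did not. The sequences run from 250 bases before to 50 bases after the gene start (RefSeq, GRCr8), in lower case, with matches to the NF-kappaB consensus in capitals on either strand. Nfkbia lies at chr6:78597023-78597322 and Nfkbib at chr1:93181338-93181637, both on the minus strand.
Nfkbia: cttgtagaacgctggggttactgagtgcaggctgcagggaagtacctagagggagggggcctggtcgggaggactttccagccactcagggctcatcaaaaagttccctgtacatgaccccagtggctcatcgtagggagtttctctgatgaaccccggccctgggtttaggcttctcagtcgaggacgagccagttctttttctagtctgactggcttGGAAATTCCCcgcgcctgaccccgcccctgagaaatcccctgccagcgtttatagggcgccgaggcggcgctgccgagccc
Nfkbib: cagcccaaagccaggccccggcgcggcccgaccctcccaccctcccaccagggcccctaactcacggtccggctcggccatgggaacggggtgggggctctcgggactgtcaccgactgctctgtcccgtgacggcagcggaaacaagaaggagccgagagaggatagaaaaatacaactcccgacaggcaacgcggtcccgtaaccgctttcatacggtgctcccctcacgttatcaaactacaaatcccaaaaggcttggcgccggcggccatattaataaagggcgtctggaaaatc
The match in Nfkbia starts at position -31 from the gene start, and the Nfkbib window holds none. Of the 9 members with a promoter in the table, 3 held a match, as did 7.51% of the 33469 promoters listed. The other matches, at position 4 of Nfkb1 and position -68 of Il6, are shown with 10 bases on each side because Nfkb1 was measured clearly above background and Il6 was not.
Nfkb1, chr2:226805440-226805469, minus strand: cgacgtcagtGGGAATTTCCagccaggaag
Il6, chr4:5894624-5894653, minus strand: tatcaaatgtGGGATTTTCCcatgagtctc
A match describes the letters and is not a measured site of binding, and its part in the values was not tested.

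The values are log2 expression after GCRMA, which corrects each probe for background by its base composition. The array of CTL replicate 3 stood apart, with a Pearson r across probe sets of 0.866 and 0.879 with the other CTL arrays, which had 0.983 with each other. Gapdh control probe sets at the 3' end minus those at the 5' end, a log2 difference that grows where labelled RNA lacks its 5' part, was 2.99 to 3.98 on the DHT replicates, 0.39 and 0.62 on CTL replicates 1 and 2 and 3.49 on CTL replicate 3. Its part in the results was not tested apart from a fit with this difference as a covariate. The members are therefore also given without CTL replicate 3, and other genes where that turned the direction or moved the value by over 1.5 times. Those fits set DHT arrays with large Gapdh differences against CTL arrays with 0.39 and 0.62 only. In them, treatment and the Gapdh difference cannot be told apart. The criteria for a call were those of the study, with limits of 2 on the fold change, 0.01 on p and 10% on the false discovery rate. In limma 320 of 31042 probe sets (1.03%) met them, 0.351% with lower and 0.68% with higher values in DHT (0.277% and 0.28% after quantile normalization), and 5.23% met them without CTL replicate 3 (3.12% lower in DHT). With 3 animals against 3, an exact permutation test cannot give a p below 0.1. In whole tissue, fewer cells of a type and less RNA per cell cannot be told apart.

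Of the 10 genes, 1 was called, Nfkbib, which was lower in DHT-treated ovaries. In 3 of the 10 the DHT and CTL arrays did not overlap, Nfkbib and Il1b with lower and Cxcl12 with higher values in DHT, beside 17.5% of all probe sets without overlap, 6.85% lower and 10.6% higher in DHT. Il6 and Tnf, 2 of the best known inflammatory cytokines, were at the background level in both groups. The median log2 fold change of the 10 genes was 0.014, beside -0.029 over all probe sets. CTL replicate 3 was the lowest of the 6 arrays for Nfkb1, Rela, Nfkbia, Ccl2 and Cxcl12, as it was for 21.7% of all probe sets. It was the highest for Il6 and Tnf, as it was for 51.4% of all probe sets. With the Gapdh difference as a covariate, Nfkb1, Nfkbia and Cxcl12 were called instead, higher in DHT at 1.38, 1.83 and 2.36 on the log2 scale, and Nfkbib at -0.87 was under the fold limit, in a fit that called 12.1% of all probe sets. Only CTL replicate 3 among the CTL animals had a Gapdh difference in the range of the DHT arrays, so this fit leans on that animal. The DHT mean minus CTL replicate 3 alone was 1.39, 1.93 and 2.33 for Nfkb1, Nfkbia and Cxcl12, and -0.88 for Nfkbib.

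**Figure D1:**
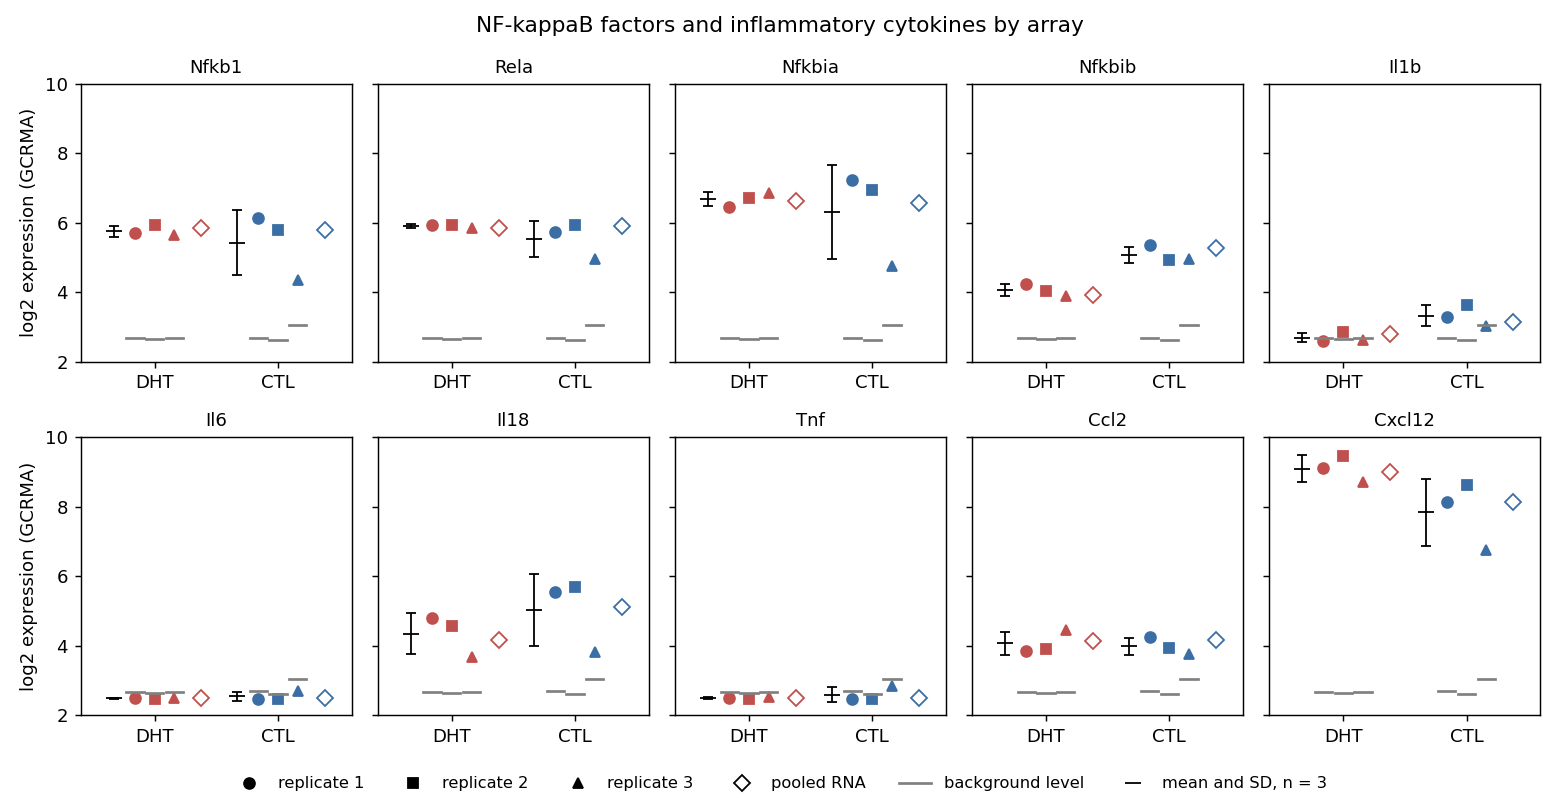
Log2 expression (vertical axis) of the 10 genes on each array, DHT left and CTL right in every panel, with filled symbols for single animals, open diamonds for pooled RNA, black bars for the mean and SD of 3 animals and grey lines for the background level of each array. Nfkbib shows a gap between the groups, Il6 and Tnf lie at or below the grey lines, and CTL replicate 3 (blue triangle) lies far below the other CTL animals for Nfkb1, Nfkbia and Cxcl12.

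The question for the factors themselves was whether the transcripts of the p50 and p65 subunits differed with androgen. Nfkb1 had log2 values of 5.71, 5.92 and 5.63 in DHT-treated ovaries, against 6.13, 5.79 and 4.36 in CTL ovaries. The DHT animals lay inside the range of the CTL animals, which CTL replicate 3 stretched downward. Nfkb1 differed by 0.33 ± 0.48 on the log2 scale (fold change ± standard error, adjusted p = 0.896 by limma), with a 95% confidence interval of -0.90 to 1.55. Without CTL replicate 3 it was -0.21 (adjusted p = 0.43).

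Rela had 5.94, 5.92 and 5.85 in DHT-treated ovaries, against 5.74, 5.93 and 4.95 in CTL ovaries. Here too all animals but CTL replicate 3 were close together, and the groups overlapped. For Rela the log2 fold change was 0.37 (standard error 0.27, adjusted p = 0.796), and the interval of -0.32 to 1.05 reaches past a 2-fold change in the upward direction. Without CTL replicate 3 it was 0.072 (adjusted p = 0.525).

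Nfkbia encodes IkappaB alpha, the inhibitor that NF-kappaB itself induces. Its log2 values were 6.45, 6.72 and 6.86 in DHT-treated ovaries, against 7.23, 6.95 and 4.75 in CTL ovaries. CTL replicates 1 and 2 lay above every DHT animal and CTL replicate 3 lay below them all. The log2 fold change was 0.37 (standard error 0.70, adjusted p = 0.896) with an interval of -1.40 to 2.14, so these arrays bound the change of Nfkbia loosely, and it was -0.41 without CTL replicate 3 (adjusted p = 0.243).

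Nfkbib encodes IkappaB beta, an inhibitor that is lost more slowly than IkappaB alpha after many stimuli. Its log2 values were 4.23, 4.03 and 3.90 in DHT-treated ovaries, against 5.35, 4.92 and 4.94 in CTL ovaries. The groups were clear of each other, and CTL replicate 3 did not stand apart from CTL replicates 1 and 2. Nfkbib averaged 4.06 ± 0.17 in DHT-treated ovaries and 5.07 ± 0.24 in CTL ovaries (SD, n = 3 each), and the transcript fell by 1.01 on the log2 scale in DHT (standard error 0.16, adjusted p = 0.0842 by limma), a fold of 2.02. Without CTL replicate 3 the log2 fold change was -1.08 (adjusted p = 0.0546), and the pooled DHT array was 1.35 below the pooled CTL array, at 3.91 against 5.26. The fold of 2.02 lies just inside the limit of 2, and the call was lost without any of the other 5 arrays, with adjusted p of 0.121 to 0.298. In these fits few probe sets were called at all, 0.583% when CTL replicate 1 was left out, 0.296% when it was CTL replicate 2 and 0% when it was a DHT array. It was also lost with quantile normalization (adjusted p = 0.101, log2 fold change -1.11, 0.557% of all probe sets called), median scaling (adjusted p = 0.147, -0.96, 0.95% called), a mean-variance trend (adjusted p = 0.216, 0.197% called) and a limit of 5% on the false discovery rate alone (0.0934% called).

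The difference between the inhibitors, Nfkbib minus Nfkbia, was taken within each array, and was partly chosen after values were seen. It was -2.22, -2.69 and -2.96 in DHT-treated ovaries, against -1.88, -2.02 and 0.20 in CTL ovaries. The value of 0.20 was that of CTL replicate 3, the array where Nfkbia was lowest. The groups did not overlap, as was already so for Nfkbib alone. The gap to CTL replicates 1 and 2 was small beside the spread of the CTL animals (exact permutation test, two-sided p = 0.1, the smallest possible with n = 3 per group).

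**Figure D2:**
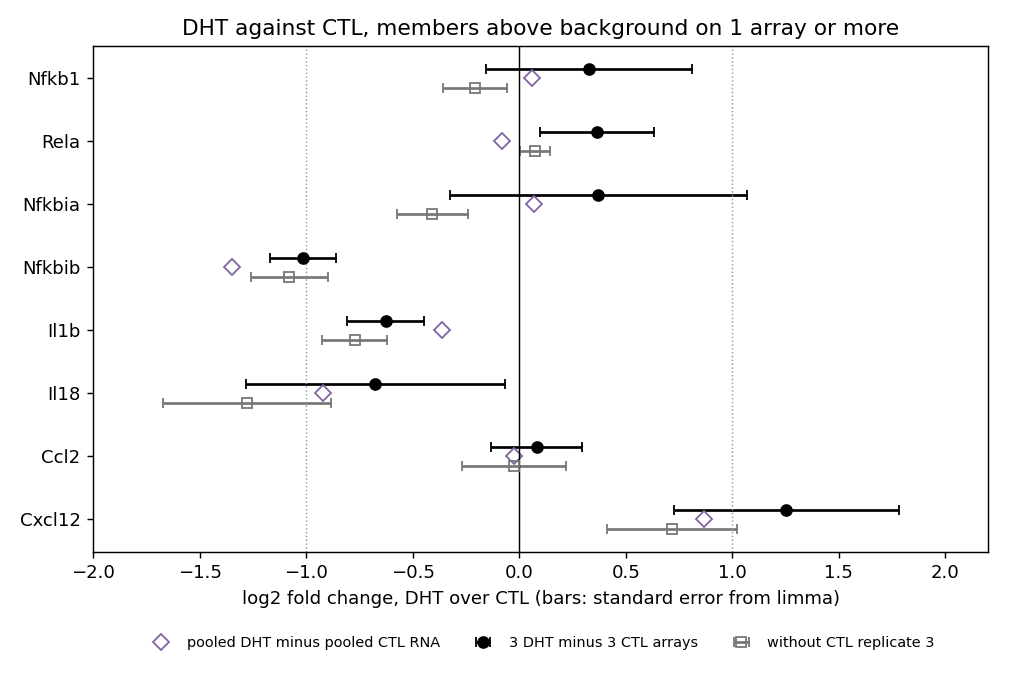
Log2 fold change, DHT over CTL (horizontal axis), of the 8 genes that were above background on 1 array or more, from 3 arrays against 3 (filled circles), without CTL replicate 3 (open squares) and between the pooled arrays (diamonds), with bars for the standard error from limma and dotted lines at a 2-fold change. Nfkbib is at -1.01, -1.08 and, between the pooled arrays, -1.35, whereas the signs of Nfkb1, Nfkbia and Ccl2 turn without CTL replicate 3.

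Among the cytokines, Il1b, the classical inducer of fever and of NF-kappaB signalling, had log2 values of 2.59, 2.86 and 2.64 in DHT-treated ovaries, against 3.29, 3.65 and 3.03 in CTL ovaries. All DHT animals were below all CTL animals, but the levels were close to the background of 2.62 to 3.05, and 2 of the 3 DHT arrays and 1 of the 3 CTL arrays were at or below it. The difference of -0.63 ± 0.18 (log2 fold change ± standard error, adjusted p = 0.251 by limma) did not pass the test. Without CTL replicate 3 it was -0.77 (adjusted p = 0.0722), which is under the fold limit.

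Il18, a cytokine of the interleukin 1 family that drives interferon production, had log2 values of 4.80, 4.58 and 3.69 in DHT-treated ovaries, against 5.56, 5.70 and 3.82 in CTL ovaries. DHT replicate 3 and CTL replicate 3 were low and close to each other, and the groups overlapped. The difference was -0.68 ± 0.61 (log2 fold change ± standard error, adjusted p = 0.896) and -1.28 without CTL replicate 3 (adjusted p = 0.153). The arrays where Il18 was highest, CTL replicates 1 and 2, are those with the small Gapdh 3' to 5' difference, and with that difference as a covariate the log2 fold change was 0.57 (adjusted p = 0.282, limma). That fit leans on CTL replicate 3, and the DHT mean minus CTL replicate 3 alone was 0.53. The part of the Gapdh difference in the values of Il18 was not tested otherwise.

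Il6 and Tnf were near background on all 8 arrays. Il6, the ligand that signals through Il6st and Stat3, read 2.48 to 2.51 on the DHT arrays, against 2.47 to 2.70 on the CTL arrays. The brighter probe set of Tnf, the ligand of the TNF receptors, read 2.48 to 2.52 on the DHT arrays, against 2.47 to 2.84 on the CTL arrays, and the second read 2.48 to 2.49 on the DHT arrays, against 2.48 to 2.74 on the CTL arrays. In each case the highest value was that of CTL replicate 3, whose own background level was 3.05. No fold is given for them, since neither group had a level above background.

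Ccl2, the chemokine that draws monocytes through Ccr2, had log2 values of 3.86, 3.90 and 4.46 in DHT-treated ovaries, against 4.25, 3.94 and 3.77 in CTL ovaries. The groups overlapped, and DHT replicate 3 was the highest array, well above the other DHT animals. For Ccl2 the log2 fold change was 0.082 (standard error 0.21, adjusted p = 0.902 by limma), with a 95% confidence interval of -0.47 to 0.63 that lies inside a 2-fold change in either direction. It was -0.026 without CTL replicate 3 and -0.11 without DHT replicate 3.

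Cxcl12, the chemokine of stromal cells that acts on Cxcr4 and Ackr3, had log2 values of 9.12, 9.47 and 8.70 in DHT-treated ovaries, against 8.13, 8.63 and 6.77 in CTL ovaries. All DHT animals were above all CTL animals, although DHT replicate 3 and CTL replicate 2 were only narrowly apart. The difference was 1.25 ± 0.53 (log2 fold change ± standard error, adjusted p = 0.452), and 0.72 without CTL replicate 3 (adjusted p = 0.257). The mean of the 3 probe sets of Cxcl12, of which 1 runs the other way as given below, differed by 0.56 (adjusted p = 0.777).

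The second probe set of Cxcl12 ran the same way, with 7.38, 7.38 and 7.22 in DHT-treated ovaries, against 5.77, 6.55 and 5.21 in CTL ovaries. Its groups were further apart than those of the brighter probe set, at 1.48 ± 0.35 (log2 fold change ± standard error, adjusted p = 0.171 by limma), so it missed the limit on the false discovery rate. It was called with the pooled arrays counted as replicate 4 (adjusted p = 0.0438, with 3.11% of all probe sets called), and without CTL replicate 3 it was at 1.17 (adjusted p = 0.0919) and not called.

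The third probe set of Cxcl12 ran the other way. It read 2.42, 2.55 and 2.48 in DHT-treated ovaries, near background on all 3 arrays, against 4.26, 3.71 and 2.61 in CTL ovaries, of which CTL replicate 3 was near background as well. The signal above background was thus limited to CTL replicates 1 and 2, the arrays with Gapdh differences of 0.39 and 0.62. It was at least 1.82-fold lower in DHT (adjusted p = 0.44), and without CTL replicate 3 at least 2.5-fold lower and called (adjusted p = 0.0377). The probe sets are annotated to the same gene, and which transcript forms each one matches is not given in the sources used here.

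**Figure D3:**
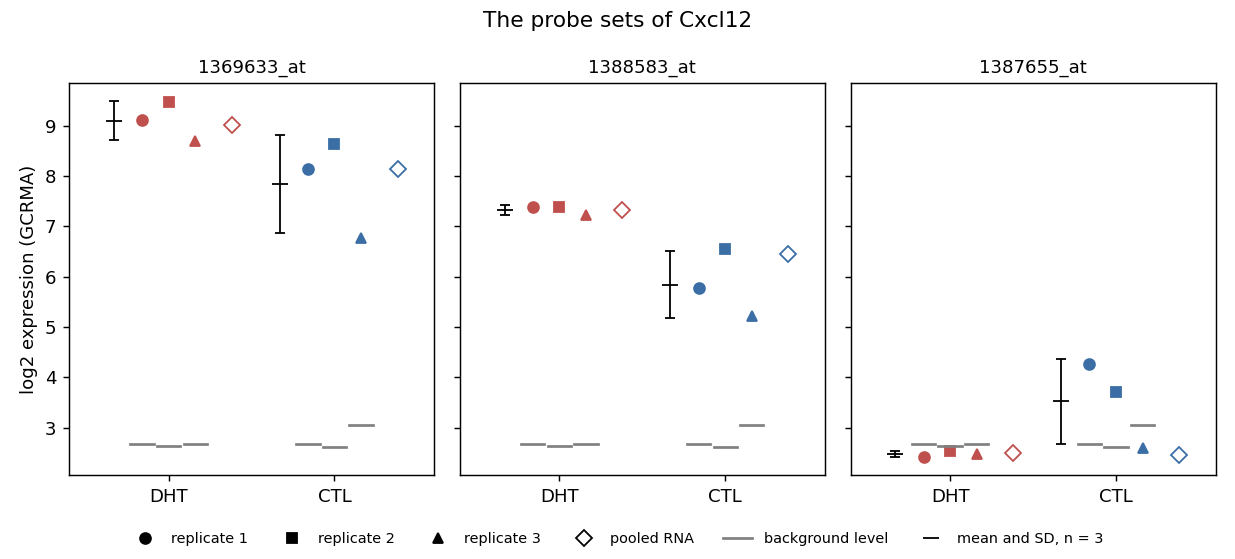
Log2 expression (vertical axis) of the 3 probe sets of Cxcl12 (brightest at the left), DHT left and CTL right in each panel, with filled symbols for single animals, open diamonds for pooled RNA, black bars for the mean and SD of 3 animals and grey lines for the background level of each array. The first and second are higher on all 3 DHT arrays, while the third exceeds background only on CTL replicates 1 and 2 and not on the array of pooled CTL RNA.

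The arrays of pooled RNA gave a check, since pooling should return about the average of the animals on the linear scale. For 12 of the 13 probe sets the pooled arrays lay -0.25 to 0.50 from log2 of that average. The exception was the third probe set of Cxcl12, which read 2.47 on the pooled CTL array, below each CTL animal, where the average of the 3 CTL animals was 3.68. Of all probe sets, 1.18% lay 1 or more below that average on the pooled CTL array, and 0 did so on the pooled DHT array. The Gapdh difference of the pooled CTL array was 2.62.

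Around these genes, 12 lists of the pathway held 108 further genes, of which 97 were measured and 24 were near background on all 6 arrays. None was called, beside 1.03% of all probe sets, and 11 of the 97 had an unadjusted p of 0.05 or less in limma, 5 with lower and 6 with higher values in DHT, beside 11.9% of all probe sets. Without CTL replicate 3, 2 were called, both lower in DHT, beside 5.23% of all probe sets. These were Sod2, the mitochondrial superoxide dismutase and an NF-kappaB target, at -2.59 (adjusted p = 0.0489), and Il18bp, which neutralizes interleukin 18, at -1.23 (adjusted p = 0.061). In the comparison of all 6 arrays Sod2 had 6.47, 6.69 and 5.73 in DHT-treated ovaries, against 8.55, 9.22 and 5.89 in CTL ovaries, so CTL replicate 3 lay among the DHT animals. Il18bp had 3.21, 3.49 and 3.84 in DHT-treated ovaries, against 4.84, 4.64 and 3.06 in CTL ovaries, so CTL replicate 3 lay below every DHT animal. Its log2 fold change over all 6 arrays was -0.67 (adjusted p = 0.836).

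No gene of the pathway's core was called. Of the other subunits, Relb had a log2 fold change of 0.18 (adjusted p = 0.896; 0.017 without CTL replicate 3) and Nfkb2 had -0.038 (adjusted p = 0.942; -0.096 without it), and the 3 measured of 4 other IkappaB proteins, Nfkbiz, Bcl3 and Nfkbid, had -0.14, -0.12 and -0.011. All 3 turned slightly positive without CTL replicate 3, at 0.013, 0.016 and 0.0089. Of the IkappaB kinase complex, Ikbkb, the kinase subunit of the classical pathway, had 3.26, 3.37 and 2.79 in DHT-treated ovaries, against 4.03, 3.78 and 3.39 in CTL ovaries. Its groups did not overlap, by a narrow margin at CTL replicate 3, and it did not pass the test (log2 fold change -0.59, adjusted p = 0.422). Chuk, the other kinase subunit, had -0.31 (adjusted p = 0.896), and -0.69 without CTL replicate 3 (adjusted p = 0.0944), under the fold limit.

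Of 9 measured receptors, 3 showed no overlap between the groups, beside 17.5% of all probe sets. Cxcr4, the receptor of Cxcl12, had 4.61, 5.15 and 4.36 in DHT-treated ovaries, against 7.61, 5.57 and 5.83 in CTL ovaries, lower on every DHT array, but CTL replicate 1 was far above the other CTL animals (log2 fold change -1.63, standard error 0.60, adjusted p = 0.384). Ackr3, which takes up Cxcl12 and clears it, overlapped between the groups (0.30, adjusted p = 0.896). Il6st, the signalling chain shared by receptors of the interleukin 6 family, had 9.39, 9.67 and 9.65 in DHT-treated ovaries, against 8.68, 9.16 and 8.18 in CTL ovaries (0.90, adjusted p = 0.269). Its dimmest probe set ran the other way, with 3.33, 3.73 and 2.95 in DHT-treated ovaries, against 5.40, 5.55 and 3.45 in CTL ovaries, high on CTL replicates 1 and 2 (-1.46, adjusted p = 0.459; -2.14 and called without CTL replicate 3, adjusted p = 0.0368). The remaining receptor without overlap, Il1rap, differed by only -0.086 (-0.038 without CTL replicate 3). Ccr2 was near background on all 6 arrays.

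Of 7 measured genes of Toll-like receptors and their partners, 5 had all DHT animals below all CTL animals, beside 6.85% of all probe sets. Among the 5 were Tlr1, Tlr2 and Tlr4, with small log2 fold changes of -0.28, -0.155 and -0.21. By an alternative background level, the mode of each array plus 1, these were near background on all 6 arrays and Tlr8 on 4. Ly96, the partner of Tlr4 in binding endotoxin, had 5.93, 5.86 and 5.40 in DHT-treated ovaries, against 7.68, 6.69 and 6.45 in CTL ovaries (log2 fold change -1.21, adjusted p = 0.275). Tlr8, a sensor of RNA in endosomes, had -0.65 (adjusted p = 0.312), and Tlr4 was near background on all 3 DHT arrays. No gene of this list passed the test.

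Of the 14 adaptors and kinases, Tab2, which links ubiquitin chains to the kinase that activates the IkappaB kinase, had 7.71, 7.61 and 8.05 in DHT-treated ovaries, against 7.07, 6.78 and 6.85 in CTL ovaries. Its groups were well apart and its adjusted p was 0.0944, but the difference of 0.89 ± 0.15 (log2 fold change ± standard error) is under the fold limit. Irak2 had -0.52 (adjusted p = 0.344) and Traf3, a brake on the alternative pathway, had -0.86 (adjusted p = 0.429).

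Among 16 target genes, 5 were near background on all 6 arrays, namely Nos2, Cxcl1, Cxcl2, Csf2 and Csf3. Tnfaip3, a deubiquitinating enzyme that restrains NF-kappaB, had 5.14, 5.15 and 5.89 in DHT-treated ovaries, against 4.36, 4.72 and 4.94 in CTL ovaries (log2 fold change 0.72, adjusted p = 0.395). Ccl20 was near background on all 3 DHT arrays and on 2 of the 3 CTL arrays. Adam17, the sheddase that releases TNF from the membrane, had 0.60 (adjusted p = 0.385; 0.37 without CTL replicate 3), while Casp1, which cleaves the precursors of interleukins 1 beta and 18, had -0.28 (adjusted p = 0.513) and Casp4 had -0.70 (adjusted p = 0.783; -1.13 without it).

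Of 17 other cytokines, 11 were near background on all 6 arrays, among them Il1a, Il10 and Ifng. Tnfsf10, the death ligand TRAIL, had 5.29, 5.51 and 5.95 in DHT-treated ovaries, against 3.97, 4.72 and 4.11 in CTL ovaries, with no overlap (log2 fold change 1.31, standard error 0.27, adjusted p = 0.132). Of 13 other chemokines, Ccl11, which draws eosinophils, had 6.09, 6.29 and 7.72 in DHT-treated ovaries, against 4.24, 4.85 and 5.23 in CTL ovaries, also with no overlap (1.93, adjusted p = 0.227), and Cxcl13, which draws B cells, had -1.19 (adjusted p = 0.46; -0.76 without CTL replicate 3). Neither Tnfsf10 nor Ccl11 passed the limit on the false discovery rate. Of the interleukin 6 transducers, Jak1 read 5.50 on CTL replicate 3 and 8.44 to 8.90 on the 5 other arrays (0.97, adjusted p = 0.896; -0.11 without CTL replicate 3), while its second probe set read 2.76, 2.95 and 2.77 in DHT-treated ovaries, against 5.53, 4.47 and 2.94 in CTL ovaries, high on CTL replicates 1 and 2 as was the third probe set of Cxcl12. Ptpn11 had 0.51 (adjusted p = 0.896; -0.029 without CTL replicate 3), and Socs1 and Socs3 were near background.

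**Figure D4:**
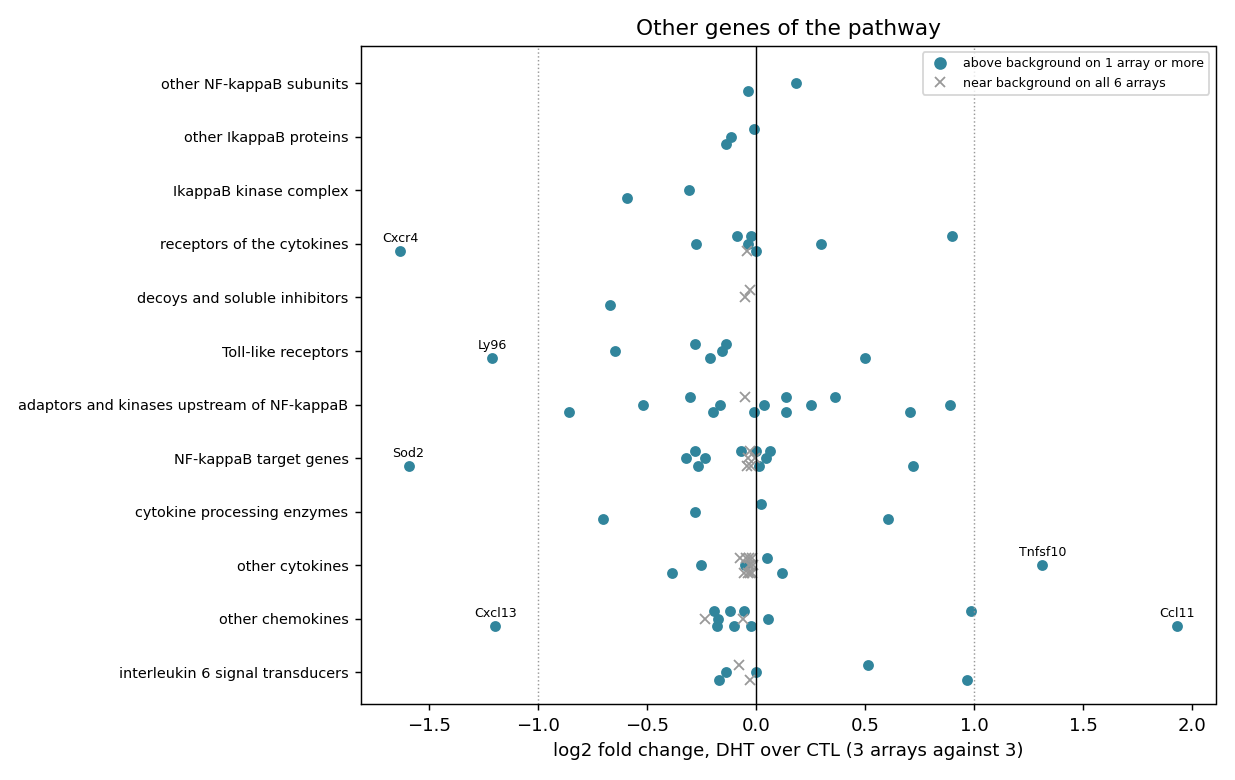
Log2 fold change, DHT over CTL from 3 arrays against 3 (horizontal axis), of the 97 measured genes of the 12 pathway lists (rows), with crosses for genes near background on all 6 arrays, dotted lines at a 2-fold change and names for genes beyond it. Most genes lie near 0, and Ccl11 at 1.93 and Cxcr4 at -1.63 lie at the ends.

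Several lists of cell type markers differed between the groups, and others did so only against CTL replicates 1 and 2. All 9 corpus luteum markers had lower means in DHT (median -2.92), with sums of linear values of 5720 to 12600 in DHT-treated ovaries, against 19800 to 38400 in CTL ovaries. Of 8 measured granulosa markers, all above background, 7 had higher means in DHT (median 1.21). The sums of the 8 were 8560 to 10200 in DHT-treated ovaries, against 3360 to 5120 in CTL ovaries. The marker with a lower mean was Cyp19a1, at -2.91 (unadjusted p = 0.0446, adjusted p = 0.404 by limma), and its groups overlapped. Inhba, a subunit of activin and inhibin A, was called higher at 1.45 (adjusted p = 0.0692). Of 5 measured theca markers, 3 had higher and 2 had lower means in DHT (median 1.03). Their sums overlapped, 1980 to 3580 in DHT-treated ovaries, against 821 to 4590 in CTL ovaries, while Insl3, a theca cell hormone, was called higher at 3.11 (adjusted p = 0.0575). Of 5 measured oocyte markers, 3 had lower and 2 had higher means in DHT (median -0.0044). Zp2, of the egg coat, was called higher at 1.55 (adjusted p = 0.087), and Bmp15 and Zp1 were near background.

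Of 15 measured macrophage markers, 14 had lower means in DHT (median log2 fold change -0.65, and -1.03 without CTL replicate 3). Their sums were 972 to 1350 in DHT-treated ovaries, against 1200 in CTL replicate 3, inside that range, and 2260 and 3270 in the other CTL ovaries. Ctss, a protease of macrophage lysosomes, was called lower at -1.16 (adjusted p = 0.0994), and Itgam was near background. Endothelial markers had a median of -0.55 (-0.80 without CTL replicate 3), and sums of 463 to 603 in DHT-treated ovaries, against 470 in CTL replicate 3 and 826 and 887 in the other CTL ovaries. All 9 stroma markers had higher means in DHT (median 0.78, but -0.28 without CTL replicate 3), and their sums overlapped, 7940 to 9340 in DHT-treated ovaries, against 2110 to 9990 in CTL ovaries. Of lymphocyte markers 4 of 10 and of granulocyte and mast cell markers 8 of 10 were near background on all 6 arrays, and the sums of both overlapped between the groups. The part of these cell types in the values of Nfkbib, Il1b, Il18, Cxcl12 and Cxcr4 was not tested.

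For the 7 genes above background on all 6 arrays, the genes with the most similar pattern were taken by Pearson r over these arrays, among 11761 probe sets, as a description. Nfkbib was most like Pitpna, a phosphatidylinositol transfer protein (r = 0.998), with 6.43, 6.33 and 6.13 in DHT-treated ovaries, against 7.60, 7.21 and 7.20 in CTL ovaries, and next Ccni (r = 0.995). Cxcl12 was most like Arfip2 and Pam (r = 0.996 and 0.995). For Nfkb1 they were Nedd4 and Ltbp1, for Rela Rangrf and Arv1, and for Nfkbia Ube2z and Pcbp1, and in each of these CTL replicate 3 was by far the lowest array, as for Nedd4 with 6.71 there and 9.53 to 10.49 elsewhere. Il18 was most like Acot2 and Acads, enzymes of fatty acid metabolism, and Ccl2 was most like Cyp2e1 and Gins4 (r = 0.975 and 0.967). The points share 6 arrays of which 1 stands apart.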

How the data were processed

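RNA of rat ovaries was measured on 8 arrays of 3' expression. The authors ran GCRMA on the scanner files (versions not given in the sources used here) and deposited log2 expression, 1 value for each probe set and array. No scanner file was processed here. Of 31042 probe sets that are not among the 57 Affymetrix controls, 20826 carry 1 gene symbol, 436 several and 9780 none here. Symbols were updated by Entrez gene to GRCr8.

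The 3 DHT and 3 CTL single-animal arrays were compared with limma 3.58.1 (lmFit, eBayes; R 4.3.3). All adjusted p are Benjamini-Hochberg values over the 31042 probe sets of the fit in question. Near background means no higher than the 95th percentile, on the same array, of 28 olfactory, vomeronasal and taste receptor probe sets, and 31.9% were so on all 6 arrays. A fold against a group near background on its 3 arrays is a lower bound, with the background level in place of dimmer values. Genes named are the 10 members, of each list those called in the comparison of 6 arrays and, in the pathway lists, up to 3 with the smallest p, a few receptors and kinases that complete a list, and for each member above background the 2 most similar genes. Sod2, Il18bp, Ackr3 and Cyp19a1, and the difference within an array, were partly chosen after values were seen. Members and lists were chosen with earlier results of these data known. The method was tested on simulated data. Alternatives were quantile normalization or median scaling, a replicate block, the pooled arrays as replicate 4, the Gapdh difference as a covariate, a mean-variance trend, other criteria, no dim probe sets, averaged probe sets per gene, and each array left out. The number of arrays limits the precision.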

Additional observations from a re-analysis of the deposited data

How the results depend on the processing

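The count of the 10 genes called, 1 in the comparison of 6 arrays, was 0 with the replicate block, quantile normalization, median scaling, a mean-variance trend and a false discovery rate of 5% alone, and 2 (Nfkbib and Il1b) at an unadjusted p of 0.05 alone. It was 3 with the Gapdh covariate, where Nfkb1, Nfkbia and Cxcl12 were called higher at 1.38, 1.83 and 2.36 on the log2 scale and 12.1% of all probe sets were called. The covariate fit leans on CTL replicate 3, the only CTL animal with a Gapdh difference in the range of the DHT arrays. The count of the 10 genes called was 0 to 1 with an array left out. Nfkbib had a negative log2 fold change in all alternative fits, from -1.11 to -0.87. The count of pathway genes called, 0 in the comparison of 6 arrays, was 4 with the pooled arrays as replicate 4 (Cxcr4 and Ly96 lower, Tnfsf10 and Ccl11 higher), 10 with the Gapdh covariate, 11 at an unadjusted p of 0.05 alone and 0 to 2 with an array left out. With each array left out in turn, the log2 fold change ranged up to 0.68 for Nfkb1, 0.83 for Nfkbia and 0.21 for Ccl2, all without CTL replicate 1. The direction turned without CTL replicate 3 for Nfkb1 (-0.21), Nfkbia (-0.41) and Ccl2 (-0.026), without DHT replicate 3 for Ccl2 (-0.11), and with the Gapdh covariate for Il18 (0.57). Apart from the fits that left out arrays, which have fewer samples, the cause was not tested. Taking the array's mode plus 1 for the background level, Il6 and Tnf remained the members near background on all 6 arrays. Over all probe sets, 320 were called in the comparison of 6 arrays, 1622 without CTL replicate 3, 966 with the pooled arrays as replicate 4, 3747 with the Gapdh covariate, 173 with quantile normalization, 61 with a mean-variance trend, 181 and 92 when CTL replicate 1 or 2 was left out, and 0 when any DHT array was.

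The replicate numbers name separate animals. The deviations of animals with the same number from their group means had r of -0.074, 0.443 and 0.342 over probe sets. Not every animal correlated best with its own number. With so few arrays per group, these correlations cannot decide whether the numbers also pair the samples, for example by processing. With the replicate block 0 of 31042 probe sets were called, and Nfkbib had an adjusted p of 0.17.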
